A study of Rattus norvegicus with 17 samples.

Results

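The CCT chaperonin (also called TRiC) was followed here in CD4+ T helper cells of rats through the genes of its 8 subunits, Tcp1, Cct2, Cct3, Cct4, Cct5, Cct6a, Cct7 and Cct8. The members were chosen by name, as the rows of the deposited table whose platform annotation gives exactly 1 gene symbol on that list. All 8 were found among 14506 genes so named, each with 1 transcript cluster (the summary value of the probes for 1 gene on this array), and all 8 were among the 10879 genes tested. The cells had been sorted by flow cytometry out of the inguinal lymph nodes of Dark Agouti (DA) females, taken 7 days after immunization with myelin oligodendrocyte glycoprotein (MOG), which induces experimental autoimmune encephalomyelitis (EAE), a rat model of multiple sclerosis. Every rat in the series was immunized, so there is no unimmunized group. Age matched rats ate a vitamin D deprived diet (0 IU, 5 arrays), a regular diet (2 IU, 6 arrays) or a vitamin D supplemented diet (10 IU, 6 arrays), starting 5 weeks before immunization. The labels give no amount of feed behind these units, and they call the arrays biological replicates without saying whether each holds 1 rat. The series asked what dietary vitamin D does to the T cell transcriptome.

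CCT is an ATP-driven folding machine of the cytosol, built as stacked rings in which each ring holds 1 copy of each of the 8 related subunits. It encloses newly made proteins and is known above all for folding actin and tubulin, the building blocks of the cytoskeleton, and proteins with WD40 repeats such as the cell cycle activator Cdc20. Prefoldin hands unfolded actin and tubulin to it, and phosducin-like proteins assist it. A T cell that grows and divides after meeting antigen makes much new cytoskeleton, and chaperonin synthesis is known to rise in dividing cells. Tcp1 encodes the alpha subunit, Cct2 beta, Cct3 gamma, Cct4 delta, Cct5 epsilon, Cct6a zeta, Cct7 eta and Cct8 theta.

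The promoters of 4 subunit genes are shown. Cct7, Cct5 and Cct6a marked the ends of the range described below: Cct7 and Cct5 differed most between the supplemented and regular diets, and Cct6a differed least. Cct4 lay within that range and is shown because it held a heat shock element of 3 units. Like Cct8, it was called in each of the 3 comparisons. The sequences are RefSeq's for build GRCr8 and run from 250 bases before the start of the gene to 50 after it. Capitals mark the CCAAT box (CCAAT or ATTGG), the GC box (GGGCGG or CCGCCC) and pairs of heat shock factor core units (GAANNTTC or TTCNNGAA). The Cct7 window is chr4:119546480-119546779, plus strand, Cct5 chr2:84313724-84314023, minus strand, Cct4 chr14:101192807-101193106, plus strand, and Cct6a chr12:32519023-32519322, minus strand.
Cct7: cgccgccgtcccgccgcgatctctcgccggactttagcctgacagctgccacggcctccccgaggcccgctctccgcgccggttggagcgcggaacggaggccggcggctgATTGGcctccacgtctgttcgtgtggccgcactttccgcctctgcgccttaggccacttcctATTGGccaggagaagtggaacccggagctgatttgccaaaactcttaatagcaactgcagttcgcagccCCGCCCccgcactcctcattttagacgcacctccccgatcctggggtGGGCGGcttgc
Cct5: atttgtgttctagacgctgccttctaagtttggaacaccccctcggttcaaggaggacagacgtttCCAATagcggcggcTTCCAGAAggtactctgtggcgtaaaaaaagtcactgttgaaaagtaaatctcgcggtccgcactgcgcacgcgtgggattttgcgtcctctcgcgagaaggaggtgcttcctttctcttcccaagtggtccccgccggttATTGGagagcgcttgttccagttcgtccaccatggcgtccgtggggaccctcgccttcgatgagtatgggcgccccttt
Cct4: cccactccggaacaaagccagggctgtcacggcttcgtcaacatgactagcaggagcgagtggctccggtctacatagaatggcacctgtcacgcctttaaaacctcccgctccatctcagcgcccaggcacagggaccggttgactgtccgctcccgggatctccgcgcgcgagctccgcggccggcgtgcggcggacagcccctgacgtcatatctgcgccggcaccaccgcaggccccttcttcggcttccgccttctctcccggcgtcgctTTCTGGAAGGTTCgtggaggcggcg
Cct6a: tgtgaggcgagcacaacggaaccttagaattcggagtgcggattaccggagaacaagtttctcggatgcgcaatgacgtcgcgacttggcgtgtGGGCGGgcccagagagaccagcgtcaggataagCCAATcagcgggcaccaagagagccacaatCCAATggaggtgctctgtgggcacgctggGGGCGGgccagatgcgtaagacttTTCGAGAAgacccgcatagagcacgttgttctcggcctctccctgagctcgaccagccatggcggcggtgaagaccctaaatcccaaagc

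All 8 members matched a promoter in the table. The GC box lay in 6 of the 8 windows (Tcp1, Cct2, Cct3, Cct6a, Cct7 and Cct8), against 33.1% of 33465 promoters of the same length. A CCAAT box lay in 5 (Cct3, Cct5, Cct6a, Cct7 and Cct8), against 37.5%. The outward pair TTCNNGAA was found in Cct4, Cct5 and Cct6a (8.77% of all promoters) and the inward pair GAANNTTC in Cct4 alone (8.59%). In Cct4 these pairs overlap and form a heat shock element of 3 units, TTCTGGAAGGTTC, a kind that 0.798% of all promoters hold. It began 25 bases after the start, inside the transcribed part. The ETS core CGGAAG was present in Tcp1, Cct2 and Cct4 (16.6%), the E-box CACGTG in 0 of 8 (6.42%), and the DR3 vitamin D response element in 0 of 8 (0.35%). The 8 windows held from 52.3% (Cct8) to 66.0% (Cct4 and Cct7) G and C bases, above the median of 51.7% over all promoters. Whether this composition bears on the GC box count was not tested. Both strands were searched for each motif. These are letter matches in a short window and say nothing about binding.

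Values on supplemented arrays spanned a narrower range. With this spread as a covariate in limma, 0 of 8 members passed at an adjusted p of 0.05 in any diet comparison or in the F test (at an unadjusted p below 0.05, 2 for supplemented against regular, 4 for deprived against regular, 4 for supplemented against deprived and 5 in the F test). Of all 10879 genes 0, 68, 0 and 72 passed in that fit, in the same order. At an unadjusted p below 0.05 there were 1192, 1595, 1206 and 1759 genes. The spread of an array, the SD of its log2 values over all clusters, ran from 1.908 to 1.972 on supplemented arrays, 2.001 to 2.063 on regular arrays and 2.027 to 2.073 on deprived arrays, so the supplemented arrays did not overlap the others. Genes with high values were mostly lower there. The CCT genes are among these: their means over 17 arrays ran from 8.663 to 10.858, and 79.9% of the genes tested had a mean below that range. For this reason counts of CCT genes are set beside all genes tested and also beside the 1944 tested genes whose mean lay within the members' range. The sorted cells carried their defining markers, with mean log2 values on regular arrays of 12.148 for the T cell receptor complex gene Cd3g and 10.162 for Cd4.

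**Figure D1:**
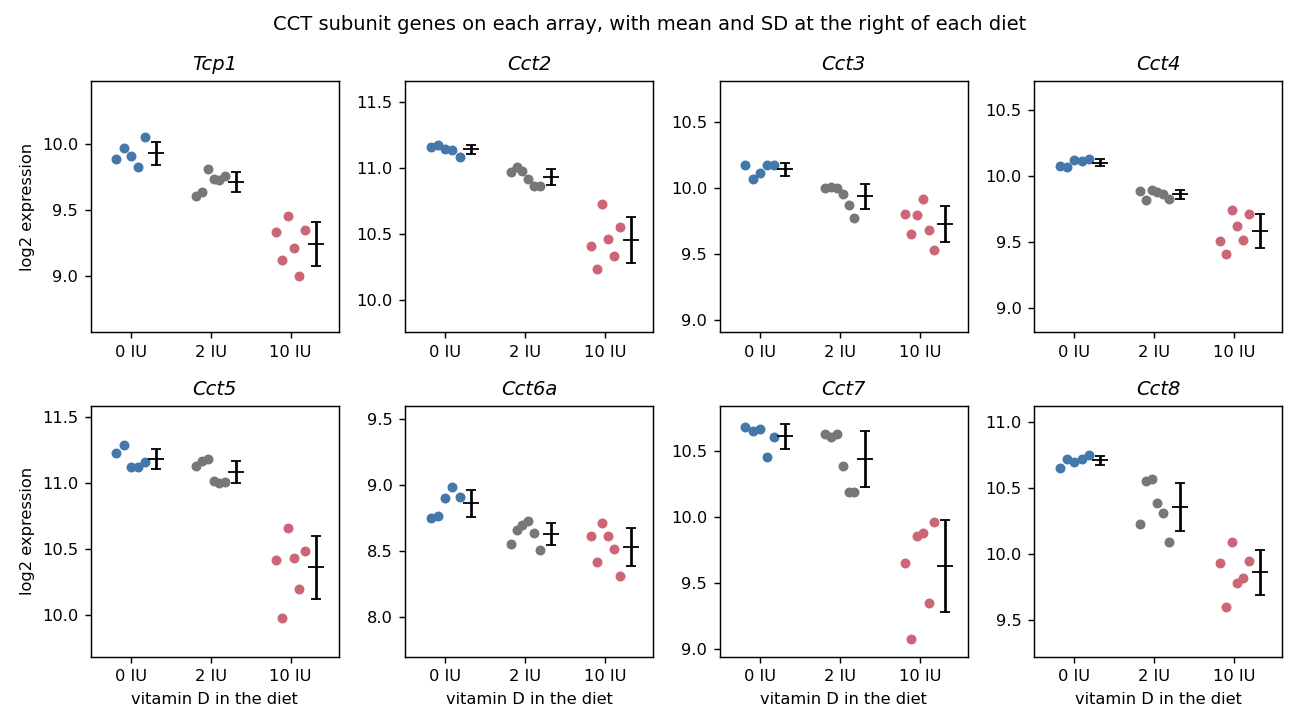
Log2 expression of each CCT subunit gene (vertical axis, each panel spanning the same range of log2 units) on every array by dietary vitamin D in IU. Points are arrays (n = 5, 6 and 6), the bar beside them is the mean with its SD. Supplemented arrays lie lowest in each panel on average, and in Cct3 and Cct6a they overlap the regular arrays.

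Levels of the CCT genes were highest under deprivation and lowest under supplementation. The mean of the 8 log2 values on an array was 10.33 ± 0.015 (SD, n = 5) under deprivation. On regular arrays it was 10.12 ± 0.079 (SD, n = 6). Supplementation gave 9.67 ± 0.157 (SD, n = 6). The 3 ranges did not overlap (10.315 to 10.355, 10.001 to 10.217, and 9.435 to 9.878), and deprived arrays lay close together while supplemented ones were scattered. For 8 of 8 members the diet means fell in the order 0, 2 and 10 IU. That order was also seen in 29.8% of all genes tested and in 61.7% of the genes in the same level range. In limma's moderated F test over the diets 8 of 8 members passed, with adjusted p-values from 4.794e-07 (Cct5) to 0.002819 (Cct6a), beside 45.3% of all genes and 70.9% of those in the level range. In bulk RNA, fewer cells of a kind and less RNA per cell cannot be told apart.

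The first question was what extra vitamin D did relative to the regular diet. Of the 8 CCT genes 7 were lower with supplementation, and 1, Cct6a, did not pass. Among all genes tested 22.9% were called lower, and among genes in the members' level range 53%. The members' median change was -0.47, against 0.000613 over all genes and -0.21 over the level range. All 6 supplemented arrays lay below all 6 regular arrays for 6 of the 8 members, a separation seen in 9.92% of all genes and 28% of those in the level range.

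Cct7, the eta subunit gene, changed most. Its 6 regular arrays held 10.626, 10.606, 10.627, 10.384, 10.185 and 10.19 (median 10.495), and its 6 supplemented arrays 9.65, 9.08, 9.853, 9.876, 9.348 and 9.963 (median 9.752). The groups did not overlap, but both were wide, and supplemented arrays 2 and 5 were the lowest. In log2 units Cct7 changed by -0.81 (SE 0.12, 6 arrays each, limma adjusted p = 4.154e-05), to 57.1% of the regular level. With arrays 2 and 5 left out the change was -0.60 (adjusted p = 0.0001599).

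Cct5, the epsilon subunit gene, came next. Regular arrays held 10.997 to 11.181 (median 11.074) and supplemented arrays 9.98 to 10.657 (median 10.426). The highest supplemented array thus lay 0.34 log2 units under the lowest regular one. Cct5 fell by 0.72 (SE 0.08, adjusted p = 3.268e-06), to 60.7% of the regular level, and ranked 61 of 10879 genes by p.

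Tcp1, Cct2 and Cct8, the alpha, beta and theta subunit genes, fell by amounts that differed by less than their standard errors. Cct8 ran from 10.091 to 10.562 on regular arrays (median 10.344) and from 9.594 to 10.088 on supplemented arrays (median 9.871). Its groups nearly met, 0.003 apart. It changed by -0.49 (SE 0.08, adjusted p = 0.0001042). Cct2 ran from 10.86 to 11.008 (median 10.94) and from 10.236 to 10.724 (median 10.433). It changed by -0.48 (SE 0.07, adjusted p = 1.797e-05). Tcp1, the founding member of the family, ran from 9.6 to 9.806 (median 9.728) and from 8.998 to 9.453 (median 9.27). Its change was -0.47 (SE 0.07, adjusted p = 4.154e-05). Each of these 3 genes stood between 71.0% and 72.4% of its regular level, and neither Cct2 nor Tcp1 overlapped between the diets.

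Cct4 and Cct3, the delta and gamma subunit genes, fell less. Cct4 was tight on regular arrays, 9.813 to 9.888 (median 9.869), and lay at 9.407 to 9.742 (median 9.565) on supplemented arrays, with no overlap. It changed by -0.28 (SE 0.06, adjusted p = 0.001065). Cct3 had 3 supplemented arrays below all regular ones and 3 within the regular range (9.529 to 9.92 against 9.775 to 10.012, medians 9.737 and 9.979). Its change was -0.21 (SE 0.07, adjusted p = 0.01805), or 86.6% of the regular level. After quantile normalization, which forces every array to 1 shape, neither passed (Cct4 -0.092, adjusted p = 0.2032, and Cct3 -0.031, adjusted p = 0.7572). Cct3 also missed the threshold without supplemented arrays 2 and 5 (adjusted p = 0.09153).

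Cct6a, the zeta subunit gene, was the exception. It ran from 8.505 to 8.726 (median 8.65) on regular arrays and from 8.315 to 8.715 (median 8.562) on supplemented arrays, so the groups overlapped, with 2 of 6 supplemented arrays (8.417 and 8.315) below all regular ones. The difference was -0.10 (SE 0.07, adjusted p = 0.2676), with a 95% interval of -0.24 to 0.04. Its sign turned after quantile normalization (0.042) and cyclic loess (0.035). Whether its change differs from those of the other members was not tested.

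**Figure D2:**
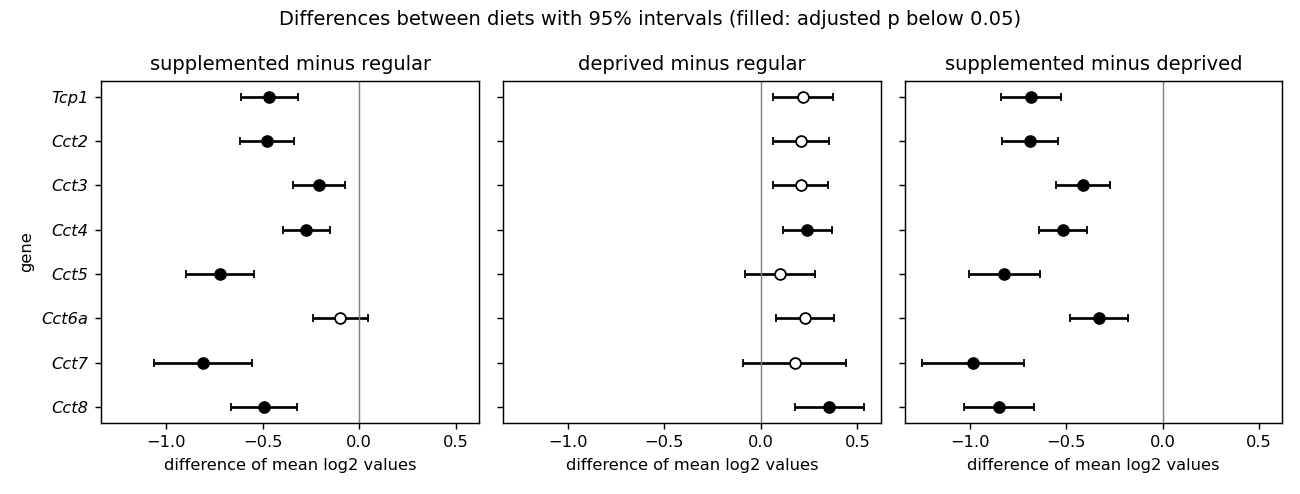
Difference of mean log2 values between diets for each CCT subunit gene (horizontal axis, bars are 95% intervals of the limma fit), in 3 comparisons. Filled points passed an adjusted p of 0.05: 7 of 8 genes in the left panel, 2 in the middle panel and 8 in the right panel.

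Within an array the values of the subunit genes changed unequally under supplementation. Set against the mean of the other 7 members on the same array, Cct7 stood 0.365 ± 0.17 (SD, n = 6) above them on regular arrays and at -0.051 ± 0.246 (SD, n = 6) on supplemented arrays, a relative change of -0.42. For Cct5 the relative change was -0.32, and it was the only member whose relative values did not overlap between these diets. In the other direction stood Cct6a (0.39), Cct3 (0.27) and Cct4 (0.19), while Tcp1 (-0.025), Cct2 (-0.041) and Cct8 (-0.058) kept close to the others. Under deprivation the relative changes against the regular diet were smaller, from -0.13 (Cct5) to 0.16 (Cct8). These values are given as a description with no test, and the spread of the array was not taken out of them. With spread as a covariate in limma, the members' changes under supplementation ran from -0.065 (Cct3) to -0.33 (Cct8). In that fit Cct7 was at -0.13, Cct5 at -0.30 and Cct6a at -0.10. Whether spread bears on the unequal changes was not tested.

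The next question was what a lack of vitamin D did relative to the regular diet. Of the 8 members, 2 were higher in T cells of deprived rats, Cct8 and Cct4, 0 were lower and 6 did not pass. Over all genes tested 1.49% were called higher and in the members' level range 4.27%. The members' median change was 0.21, against -0.000453 over all genes and 0.094 over the level range. For 6 of 8 members all 5 deprived arrays lay above all 6 regular ones, beside 4.52% of all genes and 14.4% of those in the level range.

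Cct8 held 10.652, 10.716, 10.696, 10.72 and 10.746 on the deprived arrays, all above the highest regular array at 10.562. It rose by 0.35 (SE 0.09, n = 5 and 6, adjusted p = 0.03924), to 128% of the regular level. Cct4 held 10.072, 10.069, 10.119, 10.109 and 10.123, again above the highest regular array at 9.888. It rose by 0.24 (SE 0.06, adjusted p = 0.04477). Both calls sit close to the threshold. The call of Cct4 ended when any 1 of the 11 arrays of these diets was left out, and that of Cct8 with any 1 of 9 of them (all but regular arrays 2 and 3), while the changes themselves stayed at 0.23 to 0.25 and 0.30 to 0.40. With the replicate number as a block neither passed (adjusted p = 0.07138 for Cct4 and 0.06122 for Cct8), nor did either after quantile normalization (0.156 and 0.1117).

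The other 6 members had positive differences that did not pass. Cct6a stood at 0.23 (SE 0.07, adjusted p = 0.108), with 8.747, 8.764, 8.898, 8.985 and 8.907 on the deprived arrays against a highest regular array of 8.726. Tcp1 was at 0.22 (SE 0.07), Cct2 at 0.21 (SE 0.07) and Cct3 at 0.21 (SE 0.07), each with deprived arrays above the regular ones and adjusted p-values of 0.1406, 0.1427 and 0.1286. Cct7 (0.17, SE 0.13, 95% interval -0.093 to 0.44) and Cct5 (0.099, SE 0.09, 95% interval -0.085 to 0.28) overlapped between the diets. With only these 2 diets in the fit, 5 of 8 members passed as higher, Tcp1, Cct2 and Cct6a besides Cct4 and Cct8. That fit called 400 of all 10879 genes higher, against 162 in the main fit.

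Between the extreme diets, 8 of 8 members were lower in supplemented than in deprived rats, beside 28.6% of all genes and 66% of those in the level range. All 6 supplemented arrays lay below all 5 deprived arrays for 8 of 8 members, as they did for 17.7% of all genes and 49.2% of those in the level range. Differences ran from -0.33 for Cct6a (SE 0.07, adjusted p = 0.0009432) to -0.98 for Cct7 (SE 0.13, adjusted p = 3.882e-06), so that Cct7 stood at 50.6% of its deprived level. Cct8 (-0.85, SE 0.09) and Cct5 (-0.82, SE 0.09) came next. After quantile normalization 6 of 8 passed, without Cct6a (-0.12, adjusted p = 0.2118) and Cct3 (-0.16, adjusted p = 0.06418). After cyclic loess 7 did, without Cct6a (-0.14, adjusted p = 0.162). Of all 10879 genes 2109 were called lower after quantile normalization and 2163 after cyclic loess. With array spread as a covariate 0 of 8 passed, 4 of them with an unadjusted p below 0.05 in limma. Of all 10879 genes 0 passed and 1206 had an unadjusted p below 0.05 in that fit. This comparison shares its arrays with both others and adds no separate evidence.

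**Figure D3:**
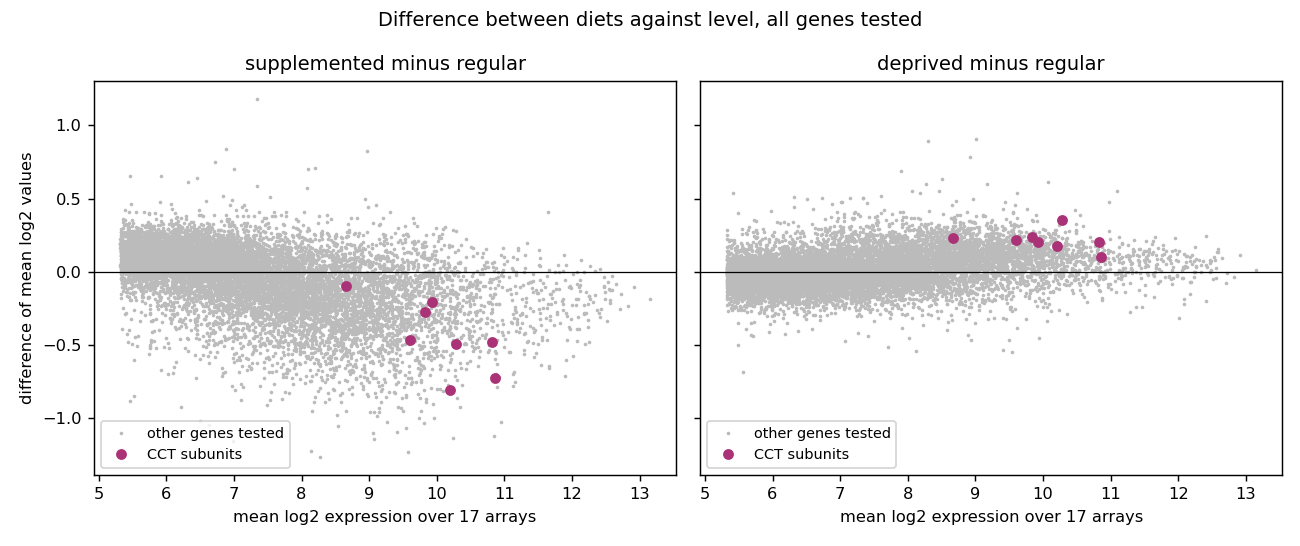
Difference of mean log2 values between diets (vertical axis) against mean log2 expression over 17 arrays (horizontal axis), for all 10879 genes tested (grey) and the 8 CCT genes (purple). In the left panel bright genes lie mostly below 0, and the CCT genes lie between -0.10 and -0.81 within that cloud.

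The CCT level and the spread of an array moved together. The 2 supplemented arrays with the smallest spread, 2 (1.911) and 5 (1.9075), had the lowest CCT means (9.435 and 9.55). Among deprived arrays the lowest CCT mean (10.315, array 5) also went with the smallest spread (2.0265). Among regular arrays it did not: array 6 had the lowest CCT mean (10.001) and array 4 the smallest spread (2.0007). An r for each diet alone is not given. After the diet means were taken away, the r of the CCT mean with spread over 17 arrays was 0.637, and for single members it ran from -0.01 (Cct6a) to 0.746 (Cct7), as a description. With supplemented arrays 2 and 5 left out, 6 of 8 members were lower and the median change was -0.38. The share of all genes called lower without these arrays is not given here. In the main fit it was 22.9% of all genes and 53% of those in the level range. With array spread as a covariate in limma, 0 of 8 members and 0 of 10879 genes passed, although 2 members and 1192 genes had an unadjusted p below 0.05. The changes in that fit were all negative, from -0.065 for Cct3 (95% interval -0.31 to 0.185) to -0.33 for Cct8 (-0.65 to 0.001), and Cct7 was at -0.13 (-0.49 to 0.24). Spread and diet do not overlap between supplemented and other arrays, so they cannot be told apart. Only Cct2 (-0.49 to -0.004) and Cct5 (-0.57 to -0.035) had intervals without 0. After quantile normalization 5 of 8 members were called lower, Tcp1, Cct2, Cct5, Cct7 and Cct8, with Cct7 at -0.63 and Cct5 at -0.53. Of all 10879 genes 1724 were called lower after that normalization.

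**Figure D4:**
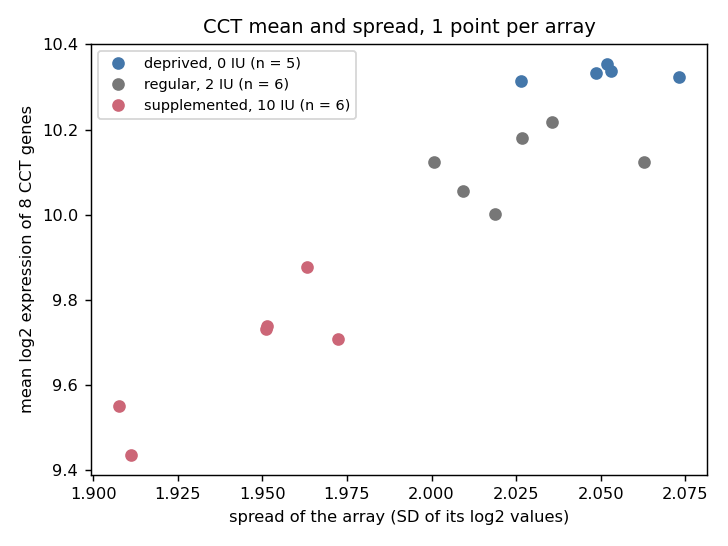
Mean log2 expression of the 8 CCT genes (vertical axis) against the spread of the array, the SD of its log2 values (horizontal axis), 1 point per array coloured by diet. The 6 supplemented arrays lie at the lower left, with spreads up to 1.972 and CCT means up to 9.878, apart from the other 11.

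The partners of CCT were looked at through lists of genes, starting with the cofactors that feed it. Of 10 prefoldin and phosducin-like genes tested, 7 were lower under supplementation, 1 was higher and 2 did not pass, with a median of -0.47. Among all genes tested 22.9% were called lower in this comparison and 10.8% higher, and in the level range of the CCT genes 53% were lower. These shares are also the background of the lists that follow, with 1.49% higher for deprivation. The prefoldin subunit genes Pfdn6 (-0.95, SE 0.11, adjusted p = 2.254e-06) and Pfdn5 (-0.93, SE 0.11, adjusted p = 3.718e-06) fell, and Pfdn2 (-0.55, SE 0.09) and the prefoldin-like Pdrg1 (-0.67, SE 0.10) fell too. Under deprivation Pfdn6 (-0.089, SE 0.11) and Pfdn5 (-0.21, SE 0.12) did not pass. Of the list 1 gene passed there as higher, Uri1, which encodes an unconventional prefoldin (0.34, SE 0.07, adjusted p = 0.02574).

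Genes of the chaperonin's clients were called in both directions, as were genes at large. Under supplementation 22.9% of all genes tested were called lower and 10.8% higher. Of 14 actin and tubulin genes 6 were lower under supplementation, 2 higher and 6 did not pass (median -0.073). The cytoplasmic actin gene Actg1 fell by 0.58 (SE 0.09, adjusted p = 6.537e-05), and so did the tubulin genes Tuba4a (-0.59, SE 0.09) and Tubb5 (-0.56, SE 0.11), while Tuba8 was higher (0.24, SE 0.08, adjusted p = 0.026). The gamma tubulin gene Tubg1 fell by 0.25 (SE 0.06). Of 15 genes of WD40 and other client proteins 2 were lower, 2 higher and 11 did not pass (median -0.049). Lower were the transcription factor gene Stat3 (-0.42, SE 0.10, adjusted p = 0.00262) and the G1/S cyclin gene Ccne1 (-0.34, SE 0.12, adjusted p = 0.03195), and higher were the G protein beta subunit gene Gnb4 (0.24, SE 0.07) and the ubiquitin ligase activator gene Fzr1 (0.18, SE 0.06). Of 6 tubulin folding cofactors, which act after CCT, 2 fell, Tbca (-0.60, SE 0.06, adjusted p = 1.127e-06) and Tbcb (-0.49, SE 0.10, adjusted p = 0.0006046). None of the genes of these 3 lists passed for deprivation against the regular diet in limma at an adjusted p of 0.05 (0 of 14, 0 of 15 and 0 of 6).

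Genes of other chaperones were lower under supplementation and, in part, higher under deprivation. Of 14 HSP70 and HSP90 machinery genes 11 were lower under supplementation and 0 higher (median -0.39), beside 22.9% of all genes called lower. Under deprivation 6 of 14 were higher and 0 lower (median 0.26), beside 1.49% of all genes called higher. The HSP70 cofactor gene St13 fell by 0.92 (SE 0.09) under supplementation, Dnaja2 by 0.62 (SE 0.08), the HSP90 kinase partner gene Cdc37 by 0.68 (SE 0.13) and Hsp90ab1 itself by 0.37 (SE 0.07). Hsph1 rose most under deprivation (0.91, SE 0.11) and was at -0.19 (SE 0.10, adjusted p = 0.1535) under supplementation. Hspd1, the chaperonin of mitochondria and a distant relative of CCT, changed by -0.47 under supplementation (SE 0.07, adjusted p = 5.291e-05) and by 0.32 under deprivation (SE 0.08, adjusted p = 0.03677). Of 6 mitochondrial chaperone genes 5 were lower under supplementation and 1, Hspd1, was higher under deprivation. The heat shock factor gene Hsf1 passed in neither (0.055 and -0.045), and Hsf2 was at 0.43 under deprivation (SE 0.11, adjusted p = 0.05219).

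**Figure D5:**
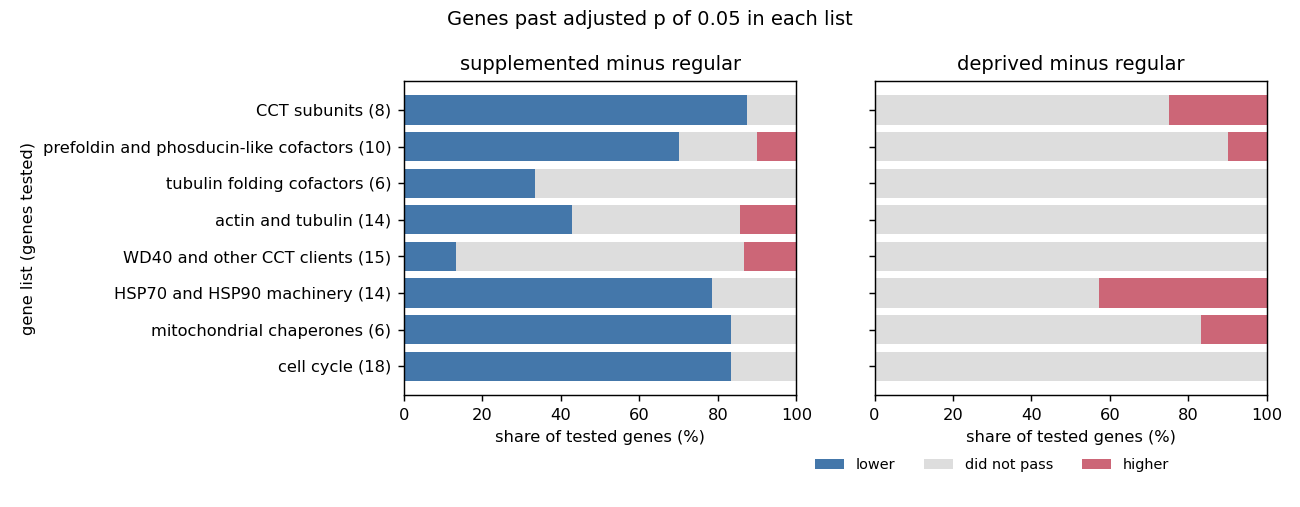
Share of tested genes in each list (number in brackets) that passed an adjusted p of 0.05 as lower (blue) or higher (red) or did not pass (grey), against the regular diet. In the left panel 7 of 8 CCT genes were lower, and in the right panel 2 of 8 were higher.

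Dividing cells and the purity of the sort were read beside these results. Of 18 cell cycle genes 15 were lower under supplementation and 3 did not pass (median -0.53), beside 22.9% of all genes called lower, with Cdk4 (-1.09, SE 0.17), Stmn1 (-0.75, SE 0.11), Pcna (-0.71, SE 0.11) and Mcm7 (-0.63, SE 0.09) as examples. Their mean log2 value ran from 6.804 to 7.315 on supplemented arrays, 7.336 to 7.803 on regular arrays and 7.192 to 7.892 on deprived arrays. Supplemented arrays lay below regular ones for this list but overlapped the deprived ones, and deprived and regular arrays overlapped each other, while for the CCT mean none of the 3 diets overlapped. Of the list 0 of 18 passed for deprivation in limma. Myc, a driver of growth, fell by 0.26 under supplementation (SE 0.07, adjusted p = 0.007758). The part of dividing cells in the CCT result was not tested.

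Most markers of other cells had low values. The summed linear level of 12 macrophage, monocyte and neutrophil markers was 853 to 968 on supplemented arrays, 746 to 861 on regular arrays and 722 to 881 on deprived arrays, and of 8 tested genes 2 were higher under supplementation, Tyrobp (0.32, SE 0.08) and C1qb (0.25, SE 0.09). S100a8, S100a9, Itgam and Adgre1 lay below the lowest mean tested, 5.321. For 6 B cell markers the sums were 496 to 634, 445 to 683 and 487 to 553, 3 of 5 tested were higher (Cr2, Fcrla and Blk), Cd22, named after its values were seen, was at -0.49 (SE 0.21, adjusted p = 0.07037), and Ms4a1 lay below that level. Of 10 CD4 T cell markers 5 were lower under supplementation, Cd4 among them (-0.59, SE 0.11), and 1, Il7r, was higher under deprivation (0.24, SE 0.06, adjusted p = 0.04914), with sums of 14838 to 17127, 17656 to 19488 and 18055 to 20000. With the macrophage marker mean as a covariate 6 of 8 CCT genes were called lower (median -0.41), and Cct3 was not (adjusted p = 0.06494). With that covariate 1912 of all 10879 genes were called lower. Of the other lists 1 of 2 plasma cell markers, 1 of 6 CD8 T and NK cell markers, 0 of 2 dendritic cell markers and 1 of 7 stromal and endothelial markers were higher in limma, and 0, 1, 0 and 1 were lower.

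How closely the subunit genes follow each other from array to array was described after each diet's mean was taken away. Over 17 arrays the 28 pairs of members had a median Pearson r of 0.538, from -0.024 (Tcp1 with Cct3) to 0.924 (Cct2 with Cct5). Cct5 with Cct7 (0.885) and Cct2 with Cct4 (0.827) followed. Cct3 and Cct6a stood apart: each had an r of about 0.39 with the mean of the other 7 (0.393 and 0.39), against 0.903 for Cct5 and 0.877 for Cct2, but 0.706 with each other. Without the 2 arrays farthest from their diet mean (supplemented arrays 2 and 3) the median r was 0.309, and over the 11 regular and deprived arrays it was 0.28, so the likeness was lower without these arrays. The pairs share their arrays and the spread of these, and no test was made.

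The genes outside the family whose pattern was most like the mean of the 8, by the same r within diets over 17 arrays, were Itm2b (0.94), Ciao2a (0.939), Ubxn4 (0.923), Mphosph10 (0.922), Pycard (0.921), Supt16h (0.918), Cab39 (0.916) and G3bp2 (0.912). The median r of all other tested genes, at all levels, was 0.009. These 8 genes had high values, with means over 17 arrays from 8.967 (Ciao2a) to 11.43 (Itm2b). The median r of genes in the members' level range is not given. Each of these 8 genes was lower under supplementation, by -0.34 (Cab39) to -0.89 (Pycard), and none passed under deprivation in limma, where the largest difference was 0.31 for Mphosph10 (SE 0.10, adjusted p = 0.1356). Mphosph10 is a ribosome assembly factor, Supt16h a histone chaperone subunit and Ciao2a an iron-sulfur cluster assembly factor. They were picked for this likeness, so their r carries no test.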

How the data were processed

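RNA from sorted CD4+ T cells was hybridized to 17 Affymetrix rat gene arrays, 1 per sample, from 250 ng of total RNA each. The authors deposited log2 expression values made with RMA and Partek 6.0, per the submitters' processing notes. The log base is inferred from their range. Probe file and filters are not stated in the sources at hand. The members and gene lists were chosen with earlier results of these data known.

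Of 29214 transcript clusters, 15310 had 1 gene symbol in the platform annotation, 323 several, and 13581 were not listed; 15279 of those with 1 symbol were matched by Entrez identifier to RefSeq's GRCr8 table, for current names. Each of 14506 genes was represented by its cluster with the highest mean, and the lowest 25% were left out. One limma model (version 3.58.1 in R 4.3.3, with 14 residual degrees of freedom) over the 3 diets gave the contrasts and a moderated F test, adjusted with Benjamini-Hochberg over 10879 genes at 0.05. Differences are of mean log2 values with the model's standard error (SE). Without scan dates, batches were not examined. Precision is limited by the number of arrays, and if arrays share animals the p-values cover technical spread only. The fit was tested on simulated data of 10879 genes for supplemented minus regular. There 91% of differences of 0.5 and 100% of 1 were recovered, with 13 false calls. Recovery of smaller differences, such as those of the members under deprivation, is not given. Named genes are the members, in each list up to 4 with the smallest p for supplementation and up to 2 for deprivation, the 8 most like the members' mean, and Cd4, Hsf1, Hsf2 and Myc. Alternatives were other normalizations, filters, variance models, covariates, a replicate block and leaving out each array; leaving out supplemented arrays 2 and 5 was added after the data had been seen. Same-numbered replicates of different diets did not deviate together (r from -0.207 to 0.195 over 16 pairs).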

Additional observations from a re-analysis of the deposited data

How the results depend on the processing

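Of the count of members called, 7 lower under supplementation and 8 lower between the extreme diets stayed within 1.5 times under each alternative but the spread covariate, where both were 0 (of 8, with 2 and 4 at an unadjusted p below 0.05 in limma), as was the F test count. Leaving out any 1 array left these at 7, 8 and 8. The 2 members higher under deprivation became 0 after quantile normalization, cyclic loess, with all transcript clusters tested, with the spread covariate and with the replicate block, 1 with no filter on dim genes or the macrophage covariate, 5 with only the 2 diets fitted and 6 with array weights, and 0 to 2 with 1 array left out. The replicate numbers are only shared numbers here (1 of 17 arrays correlated best with its own number), and the replicate block changed no other call of a member.

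Over all genes, the deprivation count of 182 became 40 after quantile normalization, 84 after cyclic loess, 889 with array weights, 466 with only the 2 diets fitted, 68 with the spread covariate, 301 without supplemented arrays 2 and 5, and 33 to 244 with 1 array left out. The supplementation count of 3661 became 6901 with all clusters tested, 0 with the spread covariate and 2171 without supplemented arrays 2 and 5; its split of 1173 higher and 2488 lower became 312 and 3343 with each array centred on its median, which moved the median of all genes to -0.078. The count between the extreme diets (5132) became 10785 and 0 with all clusters and the spread covariate; its split of 2019 higher and 3113 lower became 607 and 4177 with centring, where the median was -0.103. The F test count (4927) became 10011 and 72. Single members turned sign in 4 cases, none of them a call: Cct6a under supplementation (0.042 after quantile normalization, 0.035 after cyclic loess) and, with the spread covariate, Cct5 (-0.028) and Cct7 (-0.031) under deprivation. Every other transcript cluster of a member could not be tried, since each had 1. The causes were not tested.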

Other observations

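From structural work the order of the subunits around the ring is known to be alpha, delta, beta, epsilon, eta, theta, zeta and gamma. Set in that order, the changes under supplementation were -0.47 (Tcp1), -0.28 (Cct4), -0.48 (Cct2), -0.72 (Cct5), -0.81 (Cct7), -0.49 (Cct8), -0.10 (Cct6a) and -0.21 (Cct3), so that the genes of neighbouring subunits stood at both ends of the range. The 8 neighbouring pairs had a median r within diets of 0.674 over 17 arrays and the other 20 pairs 0.426. Over the 11 regular and deprived arrays these were 0.508 and 0.153. The highest pair, Cct2 with Cct5, is a neighbouring one, and so is the lowest, Tcp1 with Cct3. This order was looked at after the values had been seen, the pairs share genes and arrays, and no test was made.

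Cct6b, a close relative of Cct6a known from testis, has a cluster of its own on the array with a mean of 4.88, below the lowest mean tested, and was not tested.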
